A study of Mus musculus and Homo sapiens with 6 samples.

Results

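Open chromatin was described at 9 genes of the tight junction, the belt that seals neighbouring epithelial cells to each other near their apical side. They are the scaffold genes Tjp1 and Tjp3, the claudin genes Cldn3, Cldn4, Cldn6, Cldn7 and Cldn12, the occludin gene Ocln and the junctional adhesion molecule gene F11r, out of 21900 protein-coding genes on the chromosomes. The genes were taken by name, and every peak inside them or within 20 kb of either annotated end was used. The material was NMuMG, an established line of mouse mammary epithelial cells, profiled by ATAC-seq, an assay that maps open chromatin by where the transposase Tn5 can cut and tag DNA. The 4 libraries were made from 25000, 50000, 75000 and 100000 cells of the same line, grown in serum-containing medium, at passages below 10 and time 0, with no genotype or treatment that differs between them. Each cell number has a single library, so differences between cell numbers carry no error and were not tested. A further 2 samples, labelled MDA-MB-231_GATA3 after a human breast cancer line, were not analysed here.

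Tight junctions are built in layers. Claudins and occludin cross the membrane repeatedly and form the strands that close the space between cells, and the claudins present set which ions pass. F11r encodes an immunoglobulin-like adhesion protein beside the strands. Tjp1 and Tjp3 encode zonula occludens proteins, scaffolds with PDZ domains that hold the strands to the actin cytoskeleton. Mammary epithelium relies on this seal to separate milk from blood, and genes of the membrane strands are known to be turned down when epithelial cells lose their junctions.

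In order of cell number, the authors' lists held 38878, 43832, 41509 and 45530 peaks, each with a whole-number score of 8 or more. No read counts come with them, so depth is unknown, and signal that scored lower would not be listed. A score is the authors' own value. It ranks peaks within a list and is not on a common scale between lists. Values of several libraries follow the same order throughout. A score percentile is the share of the peaks of that list with a lower score, with ties counted at their midpoint. As a check of the labelled cell type, 4 of 6 epithelial marker genes with a listed start had a start peak, that is a peak within 1 kb of a listed transcription start, in all 4 libraries (Krt8, Krt18, Elf3 and Jup), compared with 2 of 23 marker genes of fibroblasts, blood, endothelium, neurons and liver (Cd68 and Hnf4a). Of the markers without a listed start, 3 of 6 epithelial genes and 2 of 12 others had a peak in every library at one or other annotated end of the gene, within 1 kb. The shares over all protein-coding genes were 45.9% at listed starts and 40.7% at annotated ends, so the epithelial counts are near them and the counts of the other markers are lower. The epithelial adhesion gene Epcam, a defining marker, had no listed peak in the gene or within 20 kb of it in any library.

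The stretches of DNA around the transcription starts are shown first for 6 of the genes, because the presence of a peak there separates the members. Each sequence runs from 250 bases before to 50 bases after a start listed by RefSeq for GRCm38.p6, which is a patch release of mm10, and is written 5′ to 3′ on the strand of the gene. Capitals mark matches, on either strand, to 8 short motifs: TGANTCA (AP-1), CACCTG (an E-box bound by Snail and Zeb factors among others), AACNNGTT (grainyhead-like factors), GGAATG (TEAD), CCGGAAG (ETS), GGGCGG (the GC box), TATAAA (the TATA box) and CCAAT. F11r, Tjp1, Ocln and Cldn12 had a peak over this stretch in all 4 libraries, Cldn4 in 2 and Cldn3 in none.
F11r, chr1:171437311-171437610, plus strand: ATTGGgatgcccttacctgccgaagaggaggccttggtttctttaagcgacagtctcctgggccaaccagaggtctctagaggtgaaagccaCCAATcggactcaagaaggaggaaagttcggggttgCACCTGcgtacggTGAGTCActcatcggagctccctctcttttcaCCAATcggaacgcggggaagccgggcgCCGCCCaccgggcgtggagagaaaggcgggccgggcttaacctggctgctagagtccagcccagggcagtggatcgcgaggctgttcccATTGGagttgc
Tjp1, chr7:65371195-65371494, minus strand: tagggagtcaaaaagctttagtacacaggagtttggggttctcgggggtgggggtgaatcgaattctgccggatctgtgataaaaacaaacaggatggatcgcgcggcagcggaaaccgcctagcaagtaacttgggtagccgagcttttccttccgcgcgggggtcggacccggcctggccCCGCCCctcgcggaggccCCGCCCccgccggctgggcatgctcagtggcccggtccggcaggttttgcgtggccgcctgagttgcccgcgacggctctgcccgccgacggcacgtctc
Ocln, chr13:100552449-100552748, minus strand: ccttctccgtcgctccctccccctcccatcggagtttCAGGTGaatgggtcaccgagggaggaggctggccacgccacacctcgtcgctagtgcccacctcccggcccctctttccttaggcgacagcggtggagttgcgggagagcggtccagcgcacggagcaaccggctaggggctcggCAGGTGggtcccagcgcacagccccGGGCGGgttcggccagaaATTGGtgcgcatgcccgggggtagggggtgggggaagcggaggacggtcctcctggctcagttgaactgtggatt
Cldn12, chr5:5514800-5515099, minus strand: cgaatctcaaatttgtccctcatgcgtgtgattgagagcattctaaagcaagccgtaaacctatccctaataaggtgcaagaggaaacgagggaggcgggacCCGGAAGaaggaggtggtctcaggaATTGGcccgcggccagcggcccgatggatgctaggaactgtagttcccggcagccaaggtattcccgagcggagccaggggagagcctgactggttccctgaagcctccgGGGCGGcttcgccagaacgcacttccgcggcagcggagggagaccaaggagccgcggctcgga
Cldn4, chr5:134946885-134947184, minus strand: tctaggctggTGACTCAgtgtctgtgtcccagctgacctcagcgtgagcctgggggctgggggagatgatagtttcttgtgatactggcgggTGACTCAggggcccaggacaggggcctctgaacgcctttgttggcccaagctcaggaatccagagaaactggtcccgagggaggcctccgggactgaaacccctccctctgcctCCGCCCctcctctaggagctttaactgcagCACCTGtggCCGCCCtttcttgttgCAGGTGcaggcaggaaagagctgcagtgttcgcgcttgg
Cldn3, chr5:134985964-134986263, plus strand: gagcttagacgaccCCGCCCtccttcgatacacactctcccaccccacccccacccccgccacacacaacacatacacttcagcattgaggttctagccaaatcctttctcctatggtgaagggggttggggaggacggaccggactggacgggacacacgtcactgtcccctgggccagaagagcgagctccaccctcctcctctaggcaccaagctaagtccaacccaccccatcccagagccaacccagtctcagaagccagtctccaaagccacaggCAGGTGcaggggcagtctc

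A peak within 1 kb of a listed start was found in all 4 libraries at 5 of the 9 genes: Tjp1, Tjp3, Ocln, Cldn12 and F11r. Over all 17492 protein-coding genes with a listed start the share was 45.9%, so the count over the members is near the background. By role, all 4 genes that are not claudins were among the 5, and of the 5 claudin genes only Cldn12 was. The peak counted for Tjp3 lay over the start of its neighbour Pip5k1c, as described below. Tjp3 was no longer among them when peaks nearer to another gene were set aside. Cldn4 had a start peak in 2 libraries, and Cldn3, Cldn6 and Cldn7 had none in any, against 46.9% of all genes with none. When only peaks at or above the median score of their list were kept, the count fell from 5 to 3, leaving Tjp3, Cldn12 and F11r. No share over all genes at this score cut is given here, so the fall is not read as a trait of the members. The plot of start peak scores shows the members side by side.

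**Figure D1:**
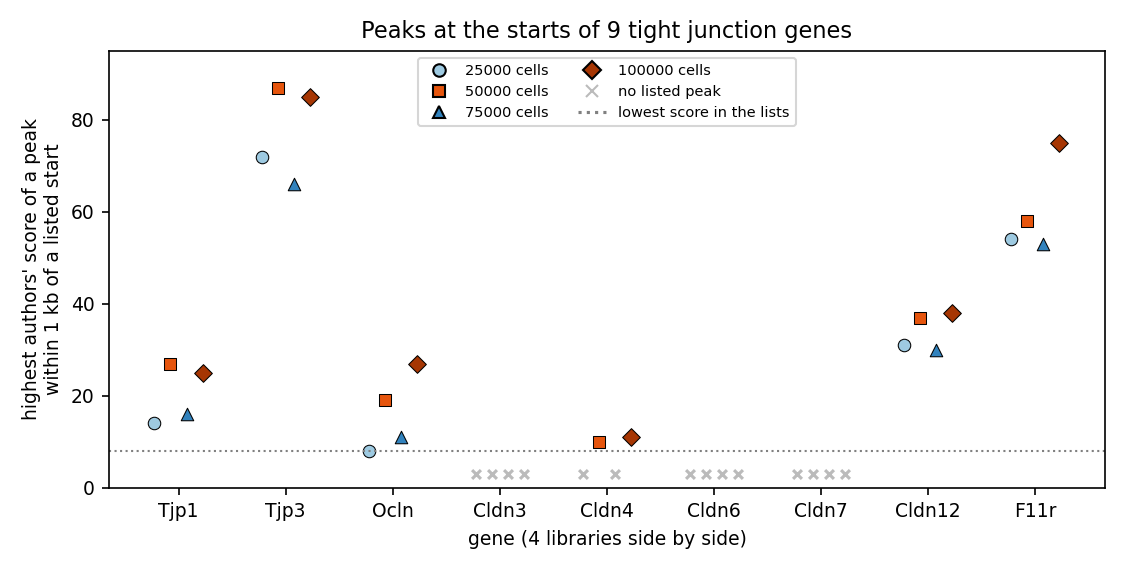
Highest score of a peak within 1 kb of a listed start, by gene (horizontal axis) and library (marker), in the authors' score units, with crosses where no peak was listed. F11r sat between 53 and 75 and Cldn12 between 30 and 38, while Cldn3, Cldn6 and Cldn7 had only crosses.

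F11r had the highest-scoring start peak that lay over its own start. Its scores were 54, 58, 53 and 75, at percentiles 95, 93.2, 93 and 96.7 of the lists. The peak began at 171437101 on chromosome 1 in every library and ended between 171437800 and 171438000, and it covered the listed start at 171437561 each time.

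Cldn12 encodes a claudin of broad tissue distribution. Its start peak scored 31, 37, 30 and 38, at percentiles 81.9, 82.9, 78 and 83.4. The peak spanned 5514551 to 5515200 on chromosome 5 in the 3 smaller libraries and began 50 bases lower at 100000 cells, and in each library it covered all 3 listed starts of the gene. A weaker peak lay just inside the gene at 50000, 75000 and 100000 cells, where the highest score was 8, 14 and 15.

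Tjp1 had a start peak of moderate score at 14, 27, 16 and 25, at percentiles 46.6, 72.6, 51.7 and 69.3. It covered the listed start at 65371244 on chromosome 7 in every library. That start lies well inside the annotated extent of the gene, which runs from 65296165 to 65527850 on the minus strand, so a search at the outer ends alone does not meet it. No library had a peak within 1 kb of either annotated end. A start further upstream may exist that is not listed.

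Ocln had the most uneven start peak. Its scores were 8, 19, 11 and 27, at percentiles 5.37, 58.5, 31 and 72.2, so that at 25000 cells it was at the lowest score a list holds. The gene has listed starts at 100552718 and 100552498 on chromosome 13. The single peaks at 50000 and 100000 cells covered both starts. At 75000 cells separate peaks of score 11 covered 1 start each, and at 25000 cells a peak of 300 bp covered only the start at 100552718.

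The peak counted at the start of Tjp3 scored 72, 87, 66 and 85 but covered neither of its listed starts, and its centre was 1194 to 1369 bp from the nearer one. It lay over the start of the neighbour Pip5k1c, a lipid kinase gene, with its centre 13 to 63 bp from a start or annotated end of that gene. Without peaks nearer to another gene, 4 members rather than 5 had a start peak in all 4 libraries. The 4 were Tjp1, Ocln, Cldn12 and F11r, which are also the members with a peak over a start base itself in every library, as 40.7% of all genes with a listed start had.

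Cldn4 encodes a claudin of tight epithelia. Its start at 134946934 on chromosome 5 was covered by a peak of score 10 at 50000 cells and of score 11 at 100000 cells, at percentiles 23.1 and 29.1, and no peak was listed at 25000 or 75000 cells. Of 318 genes with a start peak in exactly 2 libraries, 83 (26.1%) had it at the same pair of cell numbers, which are those with the longest lists.

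At each of the 5 genes with a start peak in all 4 libraries, the scores from 50000 and 100000 cells were both above those from 25000 and 75000 cells. The same held for 38.2% of the 8030 protein-coding genes with such a peak, whose median start scores were 28, 36, 33 and 37. Since the lists of 50000 and 100000 cells were also the longest and scores are not on a common scale between lists, a difference in accessibility between cell numbers cannot be told apart from a difference in depth.

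Away from the starts, several members had stronger peaks than at the start itself. Within 20 kb of the 9 genes there were 64 distinct regions, a region being the joint extent of overlapping peaks of the 4 lists. Every library had a peak in 32 of them, or 50%, with an exact Clopper-Pearson 95% interval from 37.2 to 62.8. A single library had a peak in 17, or 26.6%, with an interval from 16.3 to 39.1. Over all 55702 regions of the genome the shares were 46.3% and 26.2%, both within those intervals. The intervals cover counting error only and treat regions of the same gene as independent, which they may not be. Tjp1 alone held 17 of the regions, of which 4 had a peak in every library. At 8 of the 9 genes each library had at least 1 peak in the window, against 67.8% of protein-coding genes, the exception being Cldn3. The map of regions shows their positions by gene.

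**Figure D2:**
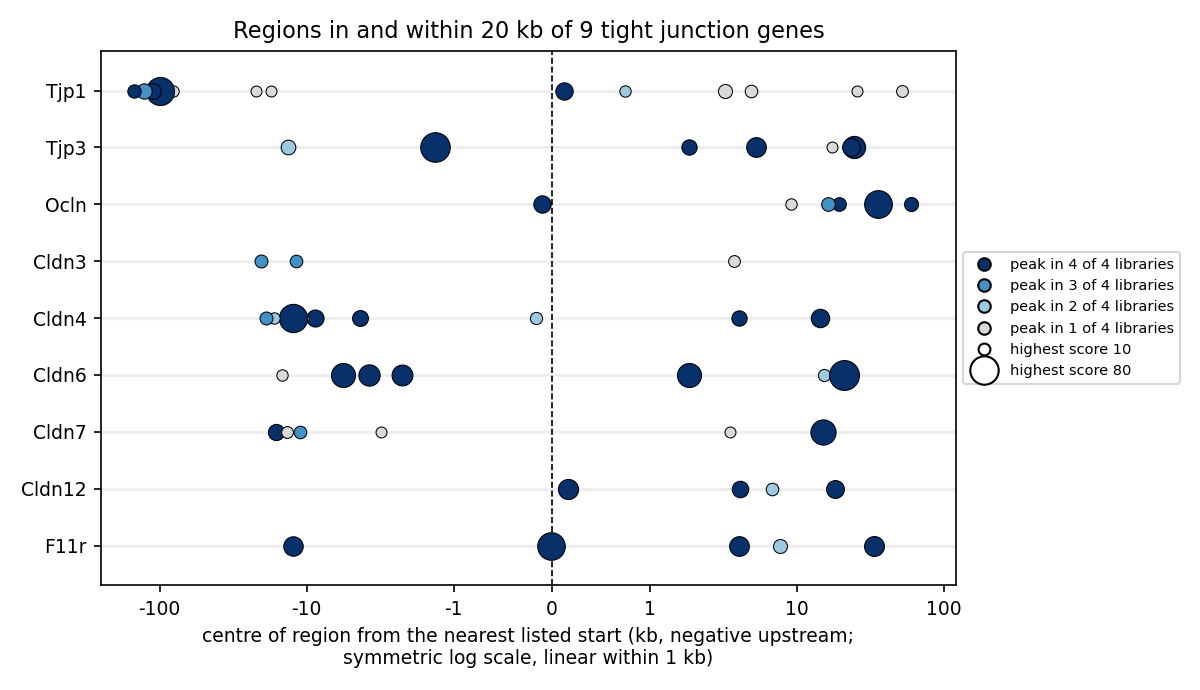
Each point is a region placed by the distance of its centre from the nearest listed start of the gene (kb, negative upstream, symmetric log axis), coloured by the number of libraries with a peak and sized by its highest score. Regions found in 1 library are small points, and the largest points of Tjp1, Ocln, Cldn4 and Cldn6 lie away from the start.

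Regions in all 4 libraries had a median highest score of 35.5, with a range of 14 to 89. Those in 2 or 3 libraries had a median of 12, and those in 1 library a median of 9 with a highest score of 16. The regions in 1 library came 5, 4, 1 and 7 from the respective cell numbers. Density around the members ranged from 6.26 regions per 100 kb at Tjp1 to 21.5 at Cldn4, compared with a median of 3.51 and an upper quartile of 6.92 over all protein-coding genes. Counting only regions in all 4 libraries, the density was 1.47 per 100 kb at Tjp1 and 0 at Cldn3, both below the median of 1.76 over all genes, and 4.16 to 12 at the other members. These densities, over the members and over all genes alike, include regions nearer to a neighbouring gene. They are therefore not specific to the gene, and at Cldn7 every region in all 4 libraries was nearer to a neighbour.

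The strongest region of Tjp1 lay inside its annotated extent, 98.6 kb upstream of the listed start, at 65469451 to 65470200 on chromosome 7. It scored 77, 74, 69 and 78, at percentiles 98.6, 96.6, 96.7 and 97.2, and its edges moved by at most 50 bp between libraries. Tjp1 held 17 regions over a window of 272 kb, all of them inside the gene, but only 4 had a peak in every library. Apart from the start and this region, those were at 65482051 to 65482600, with scores of 9, 12, 10 and 21, and at 65519651 to 65520300, with scores of 13, 9, 13 and 14.

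Ocln had its strongest region inside the gene too, 35.6 kb downstream of its nearest start, at 100516501 to 100517200 on chromosome 13. The scores were 65, 76, 51 and 61, and the peak had the same edges in all 4 libraries. A region at 100532801 to 100533400 scored 12, 12, 15 and 8, so the start peak of Ocln was closer in score to this weak internal region than to the strong one.

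F11r had 2 further regions in every library besides its start and the region near Tstd1 described below. One lay 4.01 kb inside the gene at 171441251 to 171441900, with scores of 36, 9, 27 and 22, the lowest of them at 50000 cells. The other lay 6307 bp beyond the end of the gene at 171470351 to 171471450, with highest scores of 35, 37, 30 and 31. The region upstream at 171424551 to 171425600 scored 16, 32, 24 and 35 and was nearer to Tstd1, the gene next to F11r.

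Cldn12 had regions in every library at 5510401 to 5511000 inside the gene, with scores of 16, 16, 24 and 16, and at 5496251 to 5496950 beyond its end, with scores of 26, 25, 29 and 23. None of the 4 regions of Cldn12 was nearer to another protein-coding gene. Inside Tjp3, a region 5.29 kb from the nearest start, at 81285501 to 81286450 on chromosome 10, scored 21, 36, 20 and 29, and another at 81289151 to 81289700 scored 15, 14, 8 and 20. These were the regions of Tjp3 found in every library that lay nearer to Tjp3 than to its neighbours.

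Cldn4 and Cldn3 lie side by side on chromosome 5 with their starts 39.3 kb apart, and the interval between them was open close to Cldn4 and sparse close to Cldn3. The strongest region lay 12.3 kb upstream of Cldn4, at 134958901 to 134959650, with scores of 63, 73, 61 and 79 and percentiles of 97, 96.4, 95.3 and 97.3. Between it and Cldn4 were regions at 134955351 to 134955950, with scores of 9, 22, 26 and 16, and at 134950951 to 134951600, with scores of 13, 20, 22 and 18. These 3 regions were found in every library, although the start of Cldn4 itself was not.

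Cldn3 had no region in every library. Its window held 3 regions, of which the one at 134965401 to 134966300 was shared with the window of Cldn4 and was nearer to Cldn4. The remaining ones scored at most 12, at 134974151 to 134974650 with no peak at 25000 cells and 12, 8 and 9 in the others, and at 134989701 to 134990150 with a score of 10 at 100000 cells only. The plot of the Cldn4 and Cldn3 interval shows this arrangement.

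**Figure D3:**
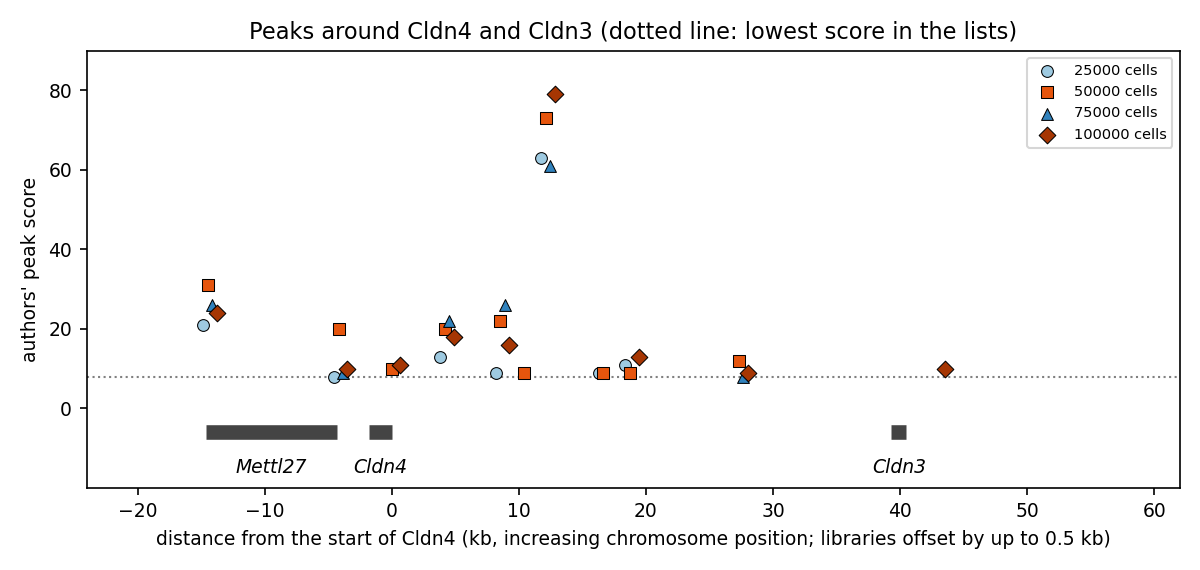
Scores of peaks (authors' units) against distance from the start of Cldn4 (kb along the chromosome), 1 marker per library, with gene extents as bars. Scores reach 61 to 79 at 12.3 kb, and no peak is listed at the Cldn3 gene itself.

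Cldn6 encodes a claudin known from embryonic epithelium. Its start had no peak, but a region inside the gene with its centre 1.83 kb downstream of the start, at 23680851 to 23681550 on chromosome 17, scored 47, 39, 56 and 48 in the 4 libraries. Widening the start window from 1 kb to 2 kb added Cldn6, so that 6 of 9 members had a start peak in all 4 libraries, against 47.4% of all genes. The end of Cldn6 is 138 bp from its neighbour Cldn9, another claudin gene, and the centre of this region was 1246 bp from the end of Cldn6 and 1384 bp from the nearer end of Cldn9. The region of the Cldn6 window with the highest mean score percentile lay 17779 bp beyond the gene at 23699851 to 23700600, with scores of 46, 57, 89 and 81, and was nearer to 1520401A03Rik. The other 3 regions in every library lay over ends of Hcfc1r1 and Tnfrsf12a upstream.

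Cldn7, a claudin of many epithelia, had no listed peak inside the gene. Its 2 regions found in every library were both at neighbours. The stronger, at 69980001 to 69981050 on chromosome 11, scored 34, 62, 38 and 56, with its centre 195 bp from a start of Elp5. The weaker, at 69948001 to 69949300, had highest scores of 14, 13, 23 and 16 and lay next to Slc2a4. In all, 21 of the 64 regions had their centre nearer to a start or end of a protein-coding gene outside the 9 than to the member, including 6 of 7 at Cldn6, 5 of 6 at Cldn7 and 5 of 7 at Tjp3, and a peak within 20 kb is therefore not specific to the gene it is counted for.

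The other genes of the junction were taken from a list of 52, of which 51 were matched and 35 had a listed start. A start peak in all 4 libraries was found at 17 of the 35, in some libraries at 4 and in none at 14, against a background of 45.9%, 7.19% and 46.9%. By role, all 8 genes of the polarity complexes with a listed start had such a peak, these complexes being what sets up the apical domain, as did 8 of 10 genes of the scaffold and cytoplasmic plaque, 1 of 4 MARVEL-domain and tricellular junction genes and 0 of 13 further claudins. Without peaks nearer to another gene, 15 rather than 17 of the 35 had one. The counts by role include such peaks.

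**Figure D4:**
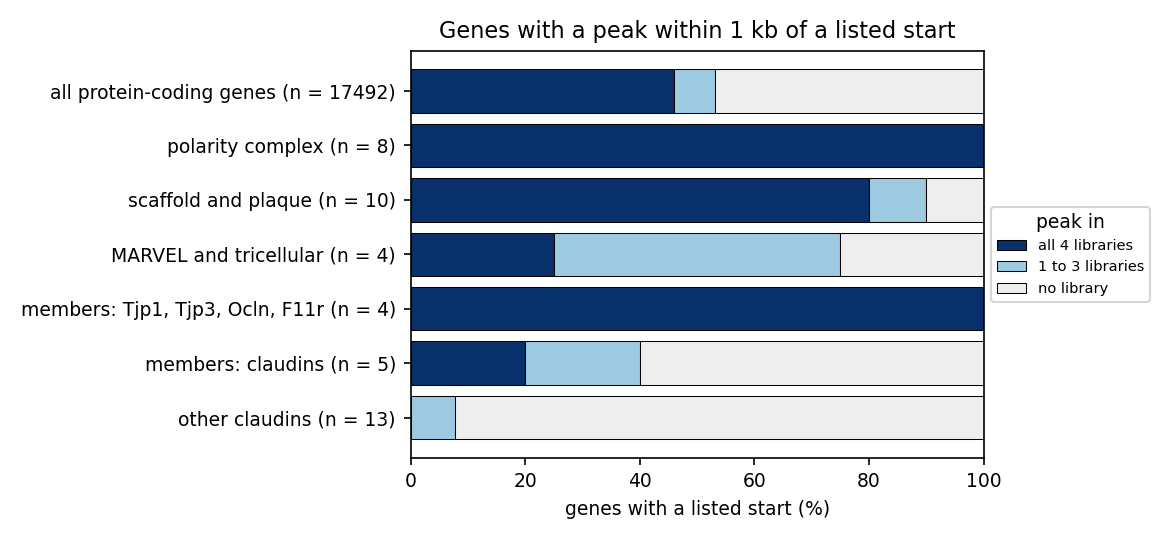
Share of genes with a listed start (horizontal axis, %) whose start had a peak within 1 kb in all 4, in 1 to 3 or in no library, by role. All 8 polarity genes and all 4 members that are not claudins had a peak in all 4 libraries, with that of Tjp3 lying over Pip5k1c, and 0 of 13 further claudins did.

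Among the polarity genes, Pard6b, which encodes a subunit of the Par complex, scored 42, 66, 54 and 63, Prkcz, an atypical protein kinase C gene, 58, 54, 41 and 54, and Prkci, its relative, 21, 35, 38 and 36. In the plaque, Magi3 scored 62, 113, 74 and 107, Sympk 47, 42, 53 and 53, and the cingulin gene Cgn 48, 39, 37 and 43. Lsr, which encodes a receptor of tricellular junctions, scored 48, 44, 45 and 58. Magi3 and Cgn encode proteins that bind the junction from the cytoplasm, as Tjp1 does. No further claudin had a start peak in every library, and of the 13 with a listed start the 1 with any was Cldn1, with a score of 10 at 50000 cells.

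Including the members, 1 of 18 claudin genes with a listed start had a start peak in all 4 libraries. At 7 of the 16 matched further claudins each library had a peak in the gene or within 20 kb, against 67.8% of all protein-coding genes, and the highest scores near Cldn14 were 54, 67, 59 and 50. Among the 7 is Cldn9, the neighbour of Cldn6, whose window shares peaks with that of Cldn6. The highest scores of both windows were 47, 57, 89 and 81. Over all 51 matched list genes, 39 had a peak in the gene or within 20 kb in each library. Only 4, namely Cldn22, Cldn34a, Ildr1 and Jam3, had none in any library, against 23.9% of all protein-coding genes. The 16 matched list genes without a listed start were counted at their annotated ends, where 5 had a peak in all 4 libraries and 6 in none, against 40.7% and 49.3% of all such genes. They included Cxadr, an adhesion receptor gene related to F11r, with scores of 36, 41, 25 and 49. Of the 4 polarity genes without a listed start, 3 had such a peak in all 4 libraries. The exception, Pard6g, had none at 25000 and 50000 cells, in the gene or within 20 kb, and scored 15 and 9 in the larger libraries.

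By mean score percentile of the start peak over the 4 libraries, the closest of the 17 further genes with a start peak in all 4 was Pard6b for F11r (93.3 and 94.5), Rab13 for Cldn12 (81.9 and 81.5), Crb3 for Tjp1 (60.3 and 60.1), Arhgef2 for Ocln (47.1 and 41.7) and Magi3 for the peak counted at Tjp3 that lay over Pip5k1c (98.2 and 97.6).

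The sequences around the starts also differed between the members, in CpG dinucleotides among other features. The 300 bp around the start held 31 CpG in Tjp1, 19 in F11r, 17 and 24 in Ocln, and 10, 23 and 26 at the 3 starts of Cldn12. They held 9 in Cldn3, 9 in Cldn4, 10 in Cldn6, 7 and 17 in Cldn7, and 3 and 9 in Tjp3. The median over 21263 listed starts of protein-coding genes was 13. Across all of these, a peak within 1 kb in all 4 libraries was found at 4.82% of starts with 0 to 4 CpG, 20.8% with 5 to 9, 60% with 10 to 19 and 76.8% with 20 or more. The plot of CpG counts sets the members beside this relation.

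**Figure D5:**
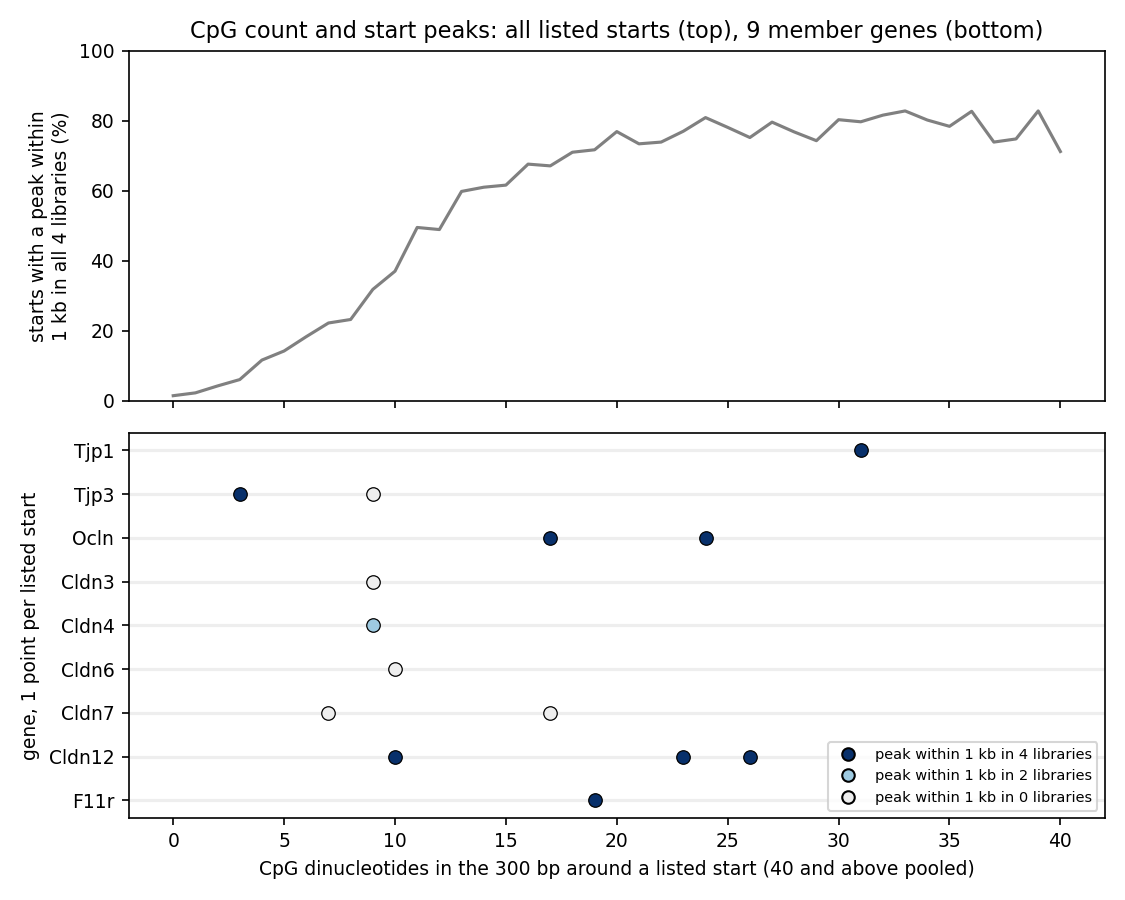
Top, share of listed starts with a peak within 1 kb in all 4 libraries (%) by the CpG count of the surrounding 300 bp. Bottom, the listed starts of the members at the same scale, filled dark where all 4 libraries had a peak. The dark points of Tjp1, F11r and Ocln lie at 17 CpG or more, and those of Cldn12 at 10, 23 and 26. A start of Cldn7 at 17 CpG had no peak. The point of Tjp3 at 3 CpG is counted for the peak over Pip5k1c.

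Taking for each gene the start with the most CpG, the median was 26.5 for the 8 polarity genes, 25.5 for the 10 plaque genes, 20.5 for the 4 MARVEL-domain and tricellular genes and 9 for the 18 claudins, compared with 15 for all protein-coding genes. All 8 polarity genes had a start with 20 or more CpG, and 3 of the 18 claudins did. So did 2 of the 4 MARVEL-domain and tricellular genes, neither of which had a start peak in all 4 libraries. Of those 3 claudins, Cldn12 had a start peak in all 4 libraries, and Cldn10 and Cldn11, with 27 and 24 CpG, had none in any, whereas 77.1% of all genes with 20 or more CpG had one. Cldn7, with 17 CpG at 1 start, also had no peak there.

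Matches to the E-box CACCTG were found for 7 of the 9 genes, namely Cldn3, Cldn4, Cldn6, Cldn7, F11r, Ocln and Tjp3, against 22.1% of all protein-coding genes with a listed start. In the sequences printed above, Ocln and Cldn4 have 2 matches each and Cldn3 and F11r 1 each. The E-box was present both where the start had a peak in every library (F11r and Ocln) and where it had none (Cldn3, Cldn6 and Cldn7). Of the 35 further junction genes with a listed start, 16 (45.7%) had a match. By role these were all 4 MARVEL-domain and tricellular genes, 6 of 8 polarity genes, 4 of 10 plaque genes and 2 of 13 further claudins.

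The AP-1 motif TGANTCA was found at Cldn4, with 2 matches, and at F11r, with 1, compared with 8.12% of all genes. A GC box was found at 8 of the 9 members and 49.2% of all genes, Tjp3 being the exception. It was as common among the further junction genes, at 28 of 35 (80%). These were all 10 plaque, all 8 polarity and all 4 MARVEL-domain and tricellular genes, and 6 of 13 further claudins. The ETS motif was found at Cldn12 and Cldn7 (12.9% of all genes), the TEAD motif at Cldn6 and Cldn7 (15.5%), and CCAAT at Cldn12, F11r, Ocln and Tjp3 (42.3%). The grainyhead-like motif and the TATA box were found at no member, against 4.71% and 14.8% of all genes. A gene with several listed starts has more sequence in which to match, and a match says only that these letters are present.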

How the data were processed

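The 4 ATAC-seq libraries of NMuMG cells were told apart by the cell number that each title gives. Per the submitters' processing notes, the tools named, without their roles, are Bowtie 0.12.8, Picard 1.107, bedtools 2.17.0, SAMtools and cutadapt, and the builds named are hg19 and mm10, of which the mouse one applies. How peaks were called, and whether reads were shifted for Tn5, is not given in the sources used here. Per library, 1 peak list was deposited, with a whole-number score per peak whose formula is likewise not given.

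With Python 3.11.15, numpy 2.4.6, pandas 2.3.3 and scipy 1.17.1, peaks were merged into regions where they overlapped by at least 1 bp, and a region took its highest score in each library. Gene extents and the listed starts of 17492 of 21900 protein-coding genes came from RefSeq (GRCm38.p6). These tables have no exons, so exon and intron were not separated, and not every start is listed. Genes without a listed start were counted at both annotated ends. Overlap functions were tested on constructed peaks, with 400 of 400 start windows answered correctly. The members and lists were chosen with earlier results of these data known. All 9 members are named; their regions beyond the start and the highest, and Cldn9, were described after their values were seen. For the other junction genes, up to 3 per role with the highest mean score percentile at the start and up to 3 without a peak within 20 kb are named, as are the genes closest to a member; Cldn1, Cldn14, Cxadr, Cldn10, Cldn11, Pard6g and the marker genes were named after their values were seen. Alternatives were other windows, score cuts, equal list lengths, resized peaks, stricter overlap and leaving out each library.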

Additional observations from a re-analysis of the deposited data

How the results depend on the processing

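The number of regions around the 9 genes was 64. It was 36 when peaks under the median score of their list were dropped, 33 inside the genes only and 100 within 50 kb. It stayed within 1.5 times of 64 with a 5 kb window (44), with regions whose nearest gene is a member (44), with equal numbers of peaks (60), with peaks resized to 200 bp (76) and without each library in turn (58 to 63). The share found in all libraries was 50% and lay between 42.4% and 55.6% under the alternatives that kept 4 libraries, and between 55% and 56.9% without 1 library. Members with a start peak in every library numbered 5, and 3 with peaks at or above the median score. They numbered 4 within 500 bp of a start and 6 within 2 kb, against 44.5% and 47.4% of all genes with a listed start. Counting the gene and 1 kb around it also gave 6. With both annotated ends in place of the starts, Tjp1 was lost and Cldn6 added, which gave 5. The count was 5 without each library too. No share over all genes is given here for the remaining alternatives, so their counts are not set against a background. Setting aside peaks nearer to another gene, an alternative chosen after seeing the data, gave 4. For the other junction genes the count of 17 of 35 ranged from 14 to 22, and from 17 to 18 without 1 library. Counting the gene and 1 kb around it gave 22 of 35. Both annotated ends also gave 22, but out of the 51 matched genes. No paired analysis was possible because each cell number has 1 library. Depth is unknown, so a place without a listed peak may have signal scoring below 8.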
